A study of Mus musculus with 10 samples.

Results

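The 8 genes described here encode the chains of the common gamma chain cytokine receptors: Il2ra, Il2rb, Il2rg, Il4ra, Il7r, Il9r, Il15ra and Il21r. They were taken by symbol from a deposited table of read counts for 55291 genes, and all 8 were found. The libraries were made from regulatory T (Treg) cells of Foxp3YFP-cre mice, a genotype that all groups share and in which the Foxp3 gene drives a yellow fluorescent protein fused to Cre recombinase. Hepa1-6 libraries (n = 4) came from tumours of an injected mouse hepatoma line taken on day 23. E.G7 libraries (n = 2) came from E.G7 tumours taken on day 21; this mouse line is an EL4 T lymphoma derivative. LN libraries (n = 4) came from lymph nodes of mice without a tumour and without treatment. Tumour cells had been injected under the skin, and the tumour Treg cells were sorted from isolated CD4+ T cells. Ages of the mice, and whether replicates were separate animals or pools, are not stated in the labels. The study asked which T helper subset intratumoural Treg cells resemble, with lymph node Treg cells as the control.

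Cytokines of this family (IL-2, IL-4, IL-7, IL-9, IL-15 and IL-21) signal through receptors that share one chain, the common gamma chain encoded by Il2rg. Each cytokine adds its own chain or chains, and the assembled receptor activates the kinases JAK1 and JAK3 and then STAT transcription factors, mainly STAT5 for IL-2, IL-7, IL-9 and IL-15, STAT6 for IL-4 and STAT3 for IL-21. Treg cells depend on IL-2, which they take up through a high-affinity receptor made of CD25 (Il2ra), CD122 (Il2rb) and the common gamma chain, and they are usually marked by high CD25 and low CD127 (Il7r).

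Library totals were 26224286 to 26665325 counts in Hepa1-6, 26585350 to 26663336 in E.G7 and 22665563 to 24472849 in LN. The Treg label was checked on Foxp3, which stood at 73.8 to 97.3 counts scaled to library size (CPM) in Hepa1-6, 47.2 and 53.3 CPM in the E.G7 pair and 94.1 to 120 CPM in LN libraries. Foxp3 was 1.32-fold lower than LN in Hepa1-6 and 2.16-fold lower in E.G7 (edgeR adjusted p = 0.00137 and 1.25e-06). Of the other Treg markers, Ikzf2 was also lower in both tumours (1.18-fold and 1.36-fold). Ctla4 (3.44-fold and 3.08-fold) and Tnfrsf18 (2.27-fold and 1.55-fold) were higher in both. Transcripts of other cell types were also present. All 11 macrophage and neutrophil markers were higher in both tumour groups than in LN (edgeR adjusted p under 0.05), with summed levels of 3507 to 3770 CPM in Hepa1-6, 698 to 736 CPM in E.G7 and 25.1 to 36.7 CPM in LN; S100a9 had no count in LN. The 8 CD8 T and NK cell markers summed to 463 to 496 CPM in Hepa1-6, 128 to 129 CPM in E.G7 and 29.5 to 33.8 CPM in LN, with Ncr1 at 0 in LN. The 7 hepatoma markers summed to 1988 to 2150 CPM in Hepa1-6, 124 to 139 CPM in E.G7 and 28.7 to 34.7 CPM in LN. Among them Alb averaged 370 CPM in Hepa1-6, 0.0554 CPM in E.G7 and 0.0389 CPM in LN, and Krt8 averaged 463 CPM in Hepa1-6, 0.129 CPM in E.G7 and 0.0194 CPM in LN, so that liver tumour transcripts were a feature of the Hepa1-6 libraries. Of the other hepatoma markers, Apoe averaged 631 CPM in Hepa1-6, 128 CPM in E.G7 and 24.9 CPM in LN, most of the E.G7 and LN sums. Krt18 and Afp, at 537 and 56.7 CPM in Hepa1-6, were also highest there. Ttr and Apoa1 were near 0 even in Hepa1-6, at 0.0206 and 0.185 CPM. The 5 immature thymocyte and T lymphoma markers summed to 130 to 138 CPM in Hepa1-6, 194 to 199 CPM in E.G7 and 3.55 to 5.28 CPM in LN. The Hepa1-6 sum was nearly all Cd8a, at 130.3 CPM, which is also on the CD8 list. Trap1a averaged 0.0516 CPM in Hepa1-6, 126.7 CPM in E.G7 and 0.0488 CPM in LN, and Dntt averaged 2.84 CPM in Hepa1-6, 46.6 CPM in E.G7 and 2.30 CPM in LN, so that these 2 markers were high in E.G7. Rag1 had no count in any library, and Rag2 had none in E.G7 or LN. Their part in the receptor levels below was not tested. In such bulk samples a smaller share of cells that carry a transcript and less of it in each cell cannot be told apart.

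To compare the genes with each other, levels were divided by exon length (CPM per kilobase). Il2rb was the highest of the 8 in each group, at 557.5 ± 6.93 in Hepa1-6 (SD, n = 4), 412 ± 21.5 in E.G7 (SD, n = 2) and 445 ± 13.6 CPM per kilobase in LN (SD, n = 4). Il2rg followed at 256 ± 9.06 in Hepa1-6, 232 ± 0.902 in E.G7 and 258 ± 10.6 CPM per kilobase in LN. These 2 genes, which form the signalling pair shared by the IL-2 and IL-15 receptors, stood within the top 0.892% of the 20068 tested genes by length-scaled level in all 3 groups. Il21r and Il2ra came next. Their library ranges overlapped in Hepa1-6 and in LN, but in E.G7 Il2ra, at 49.8 ± 0.736 CPM per kilobase, lay below Il21r, at 82.8 ± 3.06. Il4ra and Il7r formed the next tier, with Il4ra above Il7r in Hepa1-6 (59.97 ± 0.537 and 53.4 ± 1.697 CPM per kilobase), the 2 genes overlapping in E.G7 (41.1 ± 3.58 and 41.4 ± 2.97), and Il4ra below Il7r in LN (61.1 ± 1.84 and 72.6 ± 2.98). Il15ra and Il9r were the lowest pair by a wide margin. Il15ra was the higher of these 2 in Hepa1-6 (8.803 ± 0.795 and 2.02 ± 0.282) and in LN (5.58 ± 0.369 and 4.45 ± 0.077), and the lower of them in E.G7 (5.56 ± 0.409 and 6.97 ± 0.312 CPM per kilobase), with no overlap of libraries in any group.

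**Figure D1:**
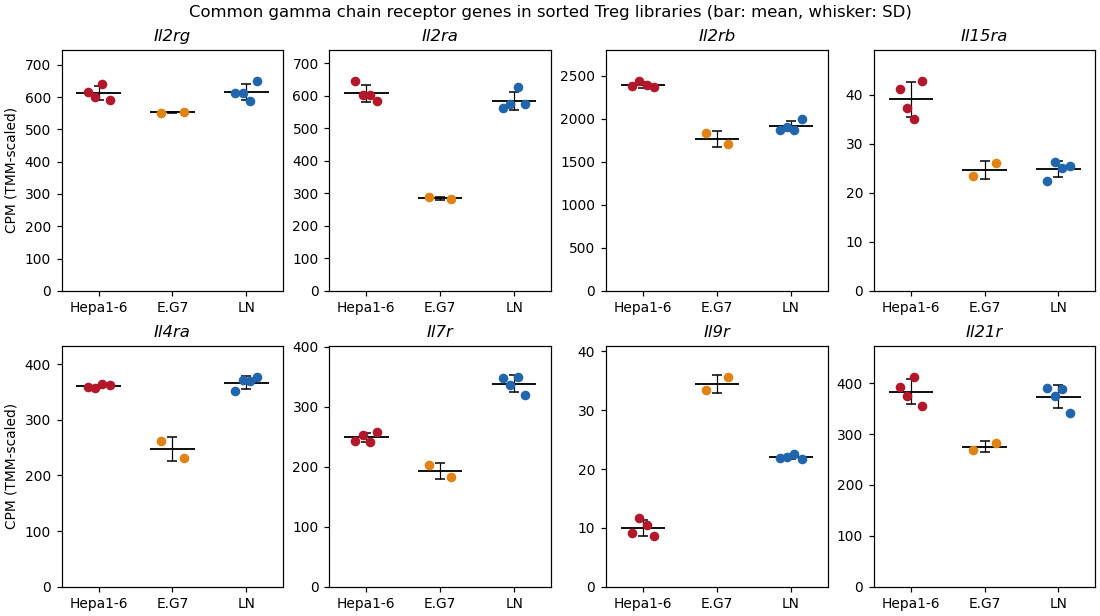
Level of each of the 8 receptor genes in CPM (scaled by the trimmed mean of M values, TMM; linear axes from 0) in every library of the Hepa1-6, E.G7 and LN groups; points are libraries, bars the mean and whiskers the SD. Il2ra shows 2 E.G7 libraries near 284 CPM, far below the other groups, and Il9r is lowest in Hepa1-6 and highest in E.G7.

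Il2rg, the chain that all receptors of the family share (chromosome X, 101264378 to 101268255, minus strand, mm10), varied little. Its libraries held 615, 599, 641 and 592 CPM in Hepa1-6, 551 and 554 CPM in the E.G7 pair, and 611, 614, 587 and 649 CPM in LN. Hepa1-6 and LN libraries overlapped, while the E.G7 pair lay below both. Against LN, the log2 fold change was -0.01 in Hepa1-6 (95% interval -0.10 to 0.09, edgeR adjusted p = 0.885) and -0.15 in E.G7 (SE 0.054, edgeR adjusted p = 0.0228). The E.G7 call was lost in 8 of 21 alternatives: with RLE scaling (adjusted p = 0.0982), DESeq2 (0.115), no filter on low counts (0.134), a fit of the 2 groups alone (0.0902) or the replicate block (0.0956), and without LN replicate 4 (0.0586) or either E.G7 library (0.112 and 0.0914). The value turned to 0.10 under pan T cell scaling, which sets libraries equal over 10 T cell genes (edgeR adjusted p = 0.0984). Of its 2387 exon bases, 728 are shared with the predicted gene Gm20489 on the same strand, which holds 10 counts in all, so the level of Il2rg per kilobase is uncertain.

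Il2ra, which encodes the alpha chain that raises the affinity of the IL-2 receptor (chromosome 2, 11642807 to 11693193, plus strand), was lower in E.G7 than in the other groups. It stood at 644, 602, 601 and 583 CPM in Hepa1-6, 287 and 281 CPM in the E.G7 pair, and 563, 575, 626 and 575 CPM in LN libraries. The Hepa1-6 and LN ranges overlapped and the E.G7 pair was well separated from both. E.G7 was 2.06-fold lower than LN (log2 -1.04, SE 0.061, edgeR adjusted p = 6.26e-10), and Hepa1-6 was 2.14-fold higher than E.G7 (log2 1.10, SE 0.061, edgeR adjusted p = 6.64e-10). Both calls held in all 21 alternatives. Between Hepa1-6 and LN the interval of the log2 fold change ran from -0.05 to 0.16 (edgeR adjusted p = 0.314), but the sign and the call depended on the scaling: log2 -0.13 with upper-quartile scaling (edgeR adjusted p = 0.0283) and 0.33 under pan T cell scaling (edgeR adjusted p = 0.000104).

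Il2rb, the beta chain that carries much of the signal of IL-2 and IL-15 (chromosome 15, 78479256 to 78495271, minus strand), rose in Hepa1-6. Its libraries held 2374, 2433, 2385 and 2368 CPM in Hepa1-6, 1831 and 1701 CPM in the E.G7 pair, and 1870, 1903, 1871 and 1994 CPM in LN. Each Hepa1-6 library lay above each library of the other groups, and the E.G7 pair lay below the LN range. Hepa1-6 was 1.25-fold higher than LN (log2 0.32, SE 0.039, edgeR adjusted p = 1.8e-06) and 1.35-fold higher than E.G7 (log2 0.44, SE 0.048, edgeR adjusted p = 1.71e-06). E.G7 against LN gave a log2 fold change of -0.11 (95% interval -0.21 to -0.01, edgeR adjusted p = 0.0521), just short of the threshold. It passed in 8 of 21 alternatives, among them those without LN replicate 2 (adjusted p = 0.0448), LN replicate 3 (0.0334) or E.G7 replicate 1 (0.0294), and under pan T cell scaling the value was 0.15 (edgeR adjusted p = 0.0188). Il2rb is also known from CD8 T and NK cells. Of their 8 markers, 7 were higher than in LN in Hepa1-6 and 6 in E.G7, beside 37.0% and 32.7% of all genes. Between the tumours 6 of the 8 were higher in Hepa1-6, beside 26.1% of all genes. Klrb1c, not called, averaged 0.597 CPM in Hepa1-6, 0.924 CPM in E.G7 and 0.981 CPM in LN. The part of CD8 T and NK cells in the rise of Il2rb was not tested.

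Il15ra, which holds IL-15 and presents it to cells that carry the beta and gamma chains (chromosome 2, 11705290 to 11734317, plus strand), also rose in Hepa1-6. It stood at 41.3, 37.4, 35.1 and 42.8 CPM in Hepa1-6, 23.4 and 26.02 CPM in the E.G7 pair, and 22.5, 26.2, 25.1 and 25.5 CPM in LN libraries. E.G7 and LN libraries overlapped, and all 4 Hepa1-6 libraries were above them. Hepa1-6 was 1.58-fold higher than LN (log2 0.66, SE 0.089, edgeR adjusted p = 7.93e-06), a call kept in all 21 alternatives, and 1.58-fold higher than E.G7 (log2 0.66, SE 0.11, edgeR adjusted p = 0.00014). E.G7 against LN stood at log2 -0.01, with an interval of -0.24 to 0.23 (edgeR adjusted p = 0.982). Macrophages and dendritic cells are known to express Il15ra. All 8 genes listed for dendritic cells and MHC class II were higher than in LN in both tumours. Among all genes 37.0% were higher in Hepa1-6 and 32.7% in E.G7. The 8 genes summed to 9446 to 9827 CPM in Hepa1-6, 1688 to 1753 CPM in E.G7 and 149 to 171 CPM in LN. The part of macrophages and dendritic cells in the level of Il15ra was not tested. Il2ra and Il15ra are neighbours on chromosome 2, 12096 bases apart with no other annotated gene between them, and their log2 fold changes against LN were 0.66 for Il15ra and 0.06 for Il2ra in Hepa1-6, and -0.01 for Il15ra and -1.04 for Il2ra in E.G7. The predicted gene Gm37881 lies within the span of Il2ra without sharing exon bases.

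Il4ra and Il21r, the chains specific for IL-4 (and, with another partner, IL-13) and for IL-21, lie next to each other on chromosome 7, 23954 bases apart with no annotated gene between them. Il4ra (125552120 to 125579474, plus strand) held 359, 356, 363 and 362 CPM in Hepa1-6, 262 and 231 CPM in the E.G7 pair, and 351, 370, 369 and 376 CPM in LN. Il21r (125603429 to 125633570, plus strand) held 392, 375, 412 and 356 CPM in Hepa1-6, 268 and 282 CPM in the E.G7 pair, and 390, 374, 389 and 342 CPM in LN. For both genes the Hepa1-6 and LN libraries overlapped, and the E.G7 pair lay below both groups. E.G7 was 1.49-fold lower than LN for Il4ra (log2 -0.57, SE 0.060, edgeR adjusted p = 5.52e-07), and 1.36-fold lower for Il21r (log2 -0.44, SE 0.070, edgeR adjusted p = 5.11e-05). Hepa1-6 was 1.46-fold and 1.39-fold higher than E.G7 (edgeR adjusted p = 1.52e-06 for Il4ra and 3.43e-05 for Il21r). The Il21r call against LN ended under pan T cell scaling (log2 -0.19, edgeR adjusted p = 0.0545), and the Il4ra call held in all 21 alternatives. Hepa1-6 against LN gave -0.03 for Il4ra (interval -0.13 to 0.07, edgeR adjusted p = 0.631) and 0.04 for Il21r (interval -0.08 to 0.16, edgeR adjusted p = 0.568), with signs that turned by scaling: -0.21 and -0.14 with upper-quartile scaling, and 0.25 and 0.31 under pan T cell scaling, each past the threshold. Over the 10 libraries Il4ra and Il21r had the closest profiles of the 28 pairs of receptor genes, with a root mean square difference of 0.11 between their centred log2 CPM. Exons of Il4ra share 571 bases with the predicted gene Gm44876 on the other strand, which has 42 counts in all.

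Il7r, the IL-7 receptor alpha chain CD127, which also serves in the receptor for TSLP (chromosome 15, 9505788 to 9530176, minus strand), fell in both tumours. It stood at 242, 253, 242 and 258 CPM in Hepa1-6, 203 and 183 CPM in the E.G7 pair, and 348, 336, 349 and 319 CPM in LN libraries. No library of one group fell within the range of another, with E.G7 lowest and LN highest. Against LN, Il7r was 1.36-fold lower in Hepa1-6 (log2 -0.44, SE 0.050, edgeR adjusted p = 1.01e-06) and 1.75-fold lower in E.G7 (log2 -0.81, SE 0.064, edgeR adjusted p = 2.08e-08). Hepa1-6 was 1.29-fold higher than E.G7 (log2 0.37, SE 0.063, edgeR adjusted p = 0.000149). Each of these 3 calls held in all 21 alternatives, although scaling to pan T cell genes brought the Hepa1-6 value against LN to -0.17 (edgeR adjusted p = 0.0227). With TMM scaling Il7r was the only gene of the 8 called lower than LN in both tumours. With upper-quartile scaling Il2ra, Il2rg, Il4ra and Il21r were also called lower in both.

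Il9r, the IL-9 receptor alpha chain (chromosome 11, 32187541 to 32200279, minus strand), moved in opposite directions in the tumours. Its libraries held 224, 283, 253 and 208 counts in Hepa1-6, 899 and 967 counts in E.G7, and 553, 570, 561 and 557 counts in LN. In CPM these were 9.15, 11.7, 10.4 and 8.58 in Hepa1-6, 33.4 and 35.6 in E.G7, and 21.9, 22.0, 22.5 and 21.6 in LN, so the groups were fully separated with LN in the middle. Hepa1-6 was 2.21-fold lower than LN (log2 -1.14, SE 0.11, edgeR adjusted p = 1.07e-07) and E.G7 was 1.57-fold higher than LN (log2 0.65, SE 0.12, edgeR adjusted p = 0.000256). Hepa1-6 was 3.46-fold lower than E.G7 (log2 -1.79, SE 0.12, edgeR adjusted p = 7.68e-09), the widest gap between the tumours among the 8 genes. All 3 calls held in all 21 alternatives. Mast cells and type 2 innate lymphoid cells are known to carry this receptor. Their 5 markers summed to 23.2 to 39.9 CPM in Hepa1-6, 47.8 and 50.3 CPM in the E.G7 pair and 6.32 to 8.76 CPM in LN. Among them Cpa3, a mast cell protease gene, stood at 4.73 ± 2.56 CPM in Hepa1-6 (SD, n = 4), 33.7 ± 0.255 CPM in E.G7 (SD, n = 2) and 1.70 ± 0.563 CPM in LN (SD, n = 4). The other 4 were higher on average in Hepa1-6 than in E.G7: Kit at 22.6 against 14.3 CPM, Mcpt4 at 2.94 against 0.740 CPM, Fcer1a at 0.494 against 0.166 CPM and Gata2 at 0.472 against 0.111 CPM. Kit and Mcpt4 passed the test of that difference (edgeR adjusted p = 0.00773 and 0.00326), and Fcer1a and Gata2 did not (0.0946 and 0.178). The order of the summed levels in the tumours therefore rests on Cpa3. Mcpt4, Fcer1a and Gata2 had no count in LN. The lymphoma markers Trap1a and Dntt were also highest in E.G7. On the same list, Cd8a was higher in Hepa1-6 than in E.G7 (130.3 against 22.8 CPM), and Rag1 and Rag2 had no count in E.G7. The part of mast, innate lymphoid or lymphoma cells in the level of Il9r was not tested.

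**Figure D2:**
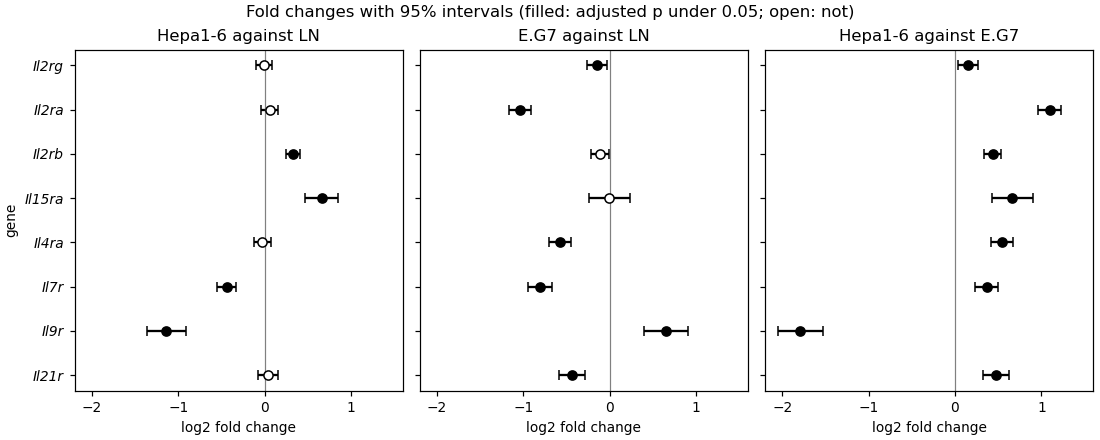
Log2 fold change of each receptor gene with its 95% interval for Hepa1-6 against LN, E.G7 against LN and Hepa1-6 against E.G7; filled points have an edgeR adjusted p under 0.05 and open points do not. In the third panel 7 genes lie right of 0 and Il9r lies at -1.79.

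Counted over the family, 2 of the 8 genes were higher in Hepa1-6 than in LN (Il2rb and Il15ra) and 2 were lower (Il7r and Il9r), against 68.0% of all 20068 tested genes called in either direction, 37.0% of them higher and 31.1% lower. For 4 of the 8 genes no library lay within the range of the other group, where 61.8% of all genes did not overlap, 34.1% higher and 27.6% lower. The median log2 fold change of the family was 0.01, beside 0.04 over all genes. In E.G7 against LN, 1 gene was higher (Il9r) and 5 were lower (Il2ra, Il2rg, Il4ra, Il7r and Il21r), where 59.9% of all genes were called, 32.7% higher and 27.2% lower. Libraries did not overlap for 7 genes, where 69.2% of all genes did not overlap, 36.6% higher and 32.6% lower. The median log2 fold change was -0.30 for the family and 0.01 for all genes. In Hepa1-6 against E.G7, 7 genes were higher and 1 was lower, so that all 8 were called, where 45.6% of all genes were called, 26.1% higher and 19.6% lower. Libraries did not overlap for any of the 8, where 58.0% of all genes did not overlap, 31.9% higher and 26.2% lower. The median log2 fold change was 0.46 for the family and 0.06 for all genes. The 3 comparisons share libraries.

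The scaling of the libraries sets where 0 lies, and it mattered for the genes with small changes. The pan T cell genes themselves were mostly lower in the tumour libraries than in LN. In Hepa1-6 7 of 10 were lower and 2 higher, where 31.1% of all genes were lower and 37.0% higher. In E.G7 6 of 10 were lower and 0 higher, where 27.2% of all genes were lower and 32.7% higher. Scaling to the pan T cell genes raised the median log2 fold change of all genes by 0.27 in Hepa1-6 against LN and by 0.26 in E.G7 against LN. The family then had 6 genes higher and 2 lower in Hepa1-6, and 2 higher and 3 lower in E.G7. Among all 20068 genes, 13486 were called in Hepa1-6 against LN under this scaling, 9363 of them higher. In E.G7 against LN 12000 were called, 8198 of them higher. Upper-quartile scaling lowered the median of all genes by 0.17 in Hepa1-6 against LN, and 2 receptor genes were then higher and 6 lower. Of all 20068 genes, 14110 were then called in that comparison, 6356 of them higher. Between the tumours the shift was at most 0.06 in size, and under each scaling 6 or 7 genes were higher in Hepa1-6 and 1 was lower, Il2rg being the gene that lost its call under RLE (0.0715) and upper-quartile scaling (0.246). Of all 20068 genes, 8987 to 9261 were called between the tumours under these scalings.

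**Figure D3:**
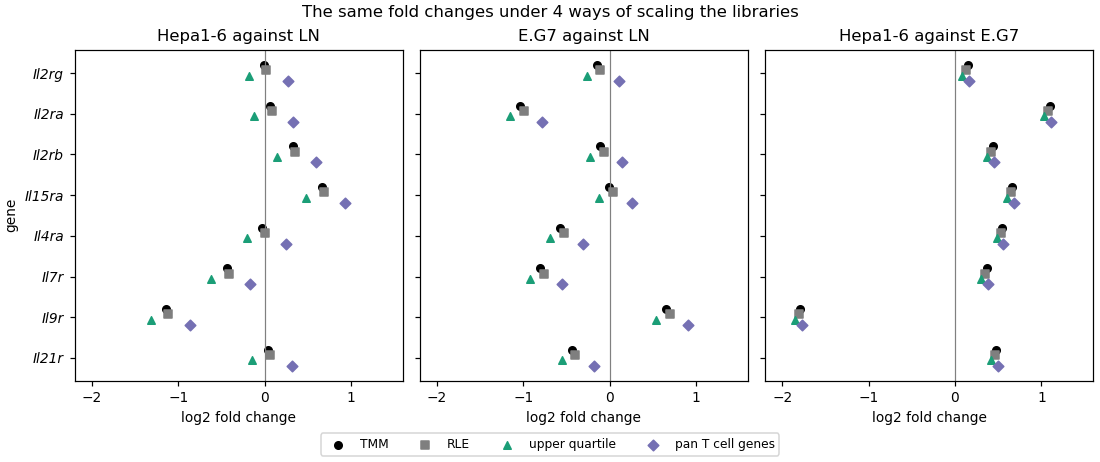
Log2 fold change of the 8 receptor genes under TMM, RLE, upper-quartile and pan T cell gene scaling, for Hepa1-6 against LN, E.G7 against LN and Hepa1-6 against E.G7. The first 2 panels show each gene shifting sideways with the scaling, by 0.27 between TMM and pan T cell genes in Hepa1-6, and the third panel shows little shift.

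Ratios of one chain to another within a library do not depend on the scaling. They are given as descriptions, from CPM per kilobase. The level of Il2rg per kilobase is uncertain, as stated above, and so are the ratios to it, the family sum and the shares of that sum. The same length was used for every library. Il2ra stood at 0.392 to 0.438 of Il2rg in Hepa1-6, 0.212 and 0.218 in E.G7, and 0.370 to 0.446 in LN, so that E.G7 lay apart and the others overlapped. Il2rb stood at 2.07 to 2.26 times Il2rg in Hepa1-6, 1.71 and 1.85 times in E.G7, and 1.70 to 1.77 times in LN, with Hepa1-6 apart. The ratio of Il2ra to Il2rb, the alpha and beta chains of the IL-2 receptor, was 0.191 ± 0.00885 in Hepa1-6 (SD, n = 4), 0.121 ± 0.00452 in E.G7 (SD, n = 2) and 0.230 ± 0.0149 in LN (SD, n = 4). No library of one group reached the range of another, and both tumours were below LN. The ratio of Il2ra to Il7r, the pair commonly used to sort Treg cells, was 1.85 to 2.17 in Hepa1-6, 1.16 and 1.25 in E.G7, and 1.32 to 1.47 in LN: higher than LN in Hepa1-6 and lower than LN in E.G7, without overlap. Over all other tested genes, the ratio to Il2rg did not overlap between the groups for 60.4% in Hepa1-6 against LN, 68.5% in E.G7 against LN and 58.8% in Hepa1-6 against E.G7. For the 7 receptor chains the counts were 4, 5 and 7. Summed over the 8 genes, the family held 1160 ± 16.8 CPM per kilobase in Hepa1-6, 871 ± 24.1 in E.G7 and 1062 ± 13.8 in LN, and Il2rb made up 48.1%, 47.3% and 41.9% of that sum.

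**Figure D4:**
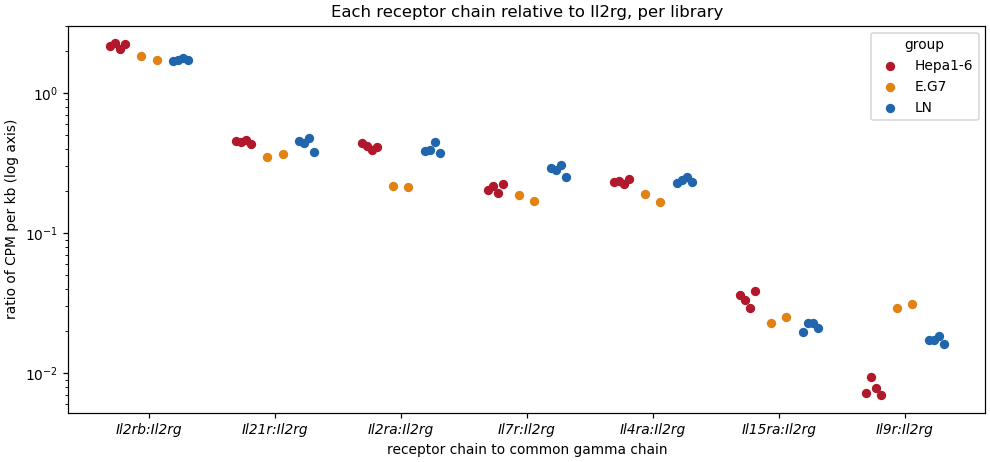
Ratio of each receptor chain to Il2rg (CPM per kilobase, log axis) in every library of the Hepa1-6, E.G7 and LN groups; each point is a library. The Il2ra ratio is about 0.215 in both E.G7 libraries and near 0.4 elsewhere, and the Il9r ratio runs from 0.00699 in Hepa1-6 to 0.0310 in E.G7.

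Promoter sequences (250 bases before to 50 after the gene start, RefSeq, GRCm38.p6, the build also called mm10) were found for 7 of the 8 genes, 8 windows in all since Il15ra has 2; Il2rb had no entry. The start used is that of the promoter set, which can differ from the gene positions given above. The Il7r window lies wholly within the span of Il7r given above, 9505788 to 9530176. The Il4ra window has more bases after the Il4ra start given above, 125552120, than before it. They were searched on both strands for the STAT element TTCNNNGAA, the AP-1 element TGANTCA and the FOXO core TAAACA. The 4 windows printed belong to the genes that were lower in E.G7 than in LN apart from Il2rg; capitals mark matches.
Il7r, chr15:9529827-9530126, minus strand: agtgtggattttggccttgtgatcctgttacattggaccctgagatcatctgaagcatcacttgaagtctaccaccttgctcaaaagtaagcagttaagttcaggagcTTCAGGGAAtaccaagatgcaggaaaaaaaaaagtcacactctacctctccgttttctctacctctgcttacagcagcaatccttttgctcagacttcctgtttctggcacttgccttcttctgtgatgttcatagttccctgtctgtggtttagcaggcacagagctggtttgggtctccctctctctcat
Il2ra, chr2:11642542-11642841, plus strand: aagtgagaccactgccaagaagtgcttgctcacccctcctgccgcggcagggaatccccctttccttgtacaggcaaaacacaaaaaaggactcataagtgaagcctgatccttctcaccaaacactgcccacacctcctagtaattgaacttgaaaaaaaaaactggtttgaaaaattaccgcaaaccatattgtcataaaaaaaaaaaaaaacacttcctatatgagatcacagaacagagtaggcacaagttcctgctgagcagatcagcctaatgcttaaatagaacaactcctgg
Il4ra, chr7:125552021-125552320, plus strand: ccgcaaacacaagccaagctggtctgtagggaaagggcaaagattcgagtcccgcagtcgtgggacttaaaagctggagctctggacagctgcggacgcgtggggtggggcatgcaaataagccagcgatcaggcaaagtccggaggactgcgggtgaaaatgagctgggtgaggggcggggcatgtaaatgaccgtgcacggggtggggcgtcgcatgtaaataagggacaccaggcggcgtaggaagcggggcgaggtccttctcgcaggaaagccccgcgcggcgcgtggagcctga
Il21r, chr7:125603179-125603478, plus strand: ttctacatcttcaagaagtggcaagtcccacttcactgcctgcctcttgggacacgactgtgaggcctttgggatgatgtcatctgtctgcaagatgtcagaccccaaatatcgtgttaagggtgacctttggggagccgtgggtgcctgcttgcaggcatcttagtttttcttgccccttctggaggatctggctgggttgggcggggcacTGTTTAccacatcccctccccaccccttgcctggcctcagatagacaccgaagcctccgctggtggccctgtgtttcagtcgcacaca

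The STAT element was found in 1 of the 8 windows, that of Il7r (TTCAGGGAA), as in 8.3% of 32851 windows of all genes. The FOXO core was found in 1 window, that of Il21r on the opposite strand (TGTTTA), as in 13.4% of all windows, and the AP-1 element in 1 window, the second of Il15ra, as in 7.81%. The Il4ra window held no match to any of these elements, so it could share none with the window of its neighbour Il21r.

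The genes with the most similar profile over the 10 libraries were looked up among 9059 genes with a mean of at least 10 CPM, by the root mean square difference of centred log2 CPM. For Il2rb these were Cd6 (0.03) and Tpm3 (0.04), for Il2rg Wdr1 (0.04) and Ly6e (0.05), and for Il4ra Cmtm6 (0.05) and Cd47 (0.05). For Il7r they were Btg2 (0.05) and Dyrk1b (0.06), for Il21r Ifih1 (0.07) and Btg1 (0.07), and for Il15ra Tmbim4 (0.09). Il2ra came closest to Znfx1 and Cflar (0.09 each). Il9r had no near match, its closest genes being Bdh1 (0.17) and Ikzf1 (0.18).

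The ligand genes were low in these libraries. Of 6 ligands, Il9 had no count in any library, which allows up to 0.0309 CPM in Hepa1-6, 0.0555 CPM in E.G7 and 0.0295 CPM in LN (3 counts over the group, counting error only). Of the 5 tested, 4 were higher in Hepa1-6 than in LN, where 37.0% of all genes were higher. In E.G7 2 were higher and 1 was lower, a share near the 59.9% of all genes called in that comparison. Il21 stood at 3.27 to 5.61 CPM in Hepa1-6, 1.64 and 1.66 CPM in the E.G7 pair and 0.277 to 0.540 CPM in LN (edgeR adjusted p = 1.64e-08 and 5.93e-05 against LN). Il15, a product mainly of myeloid and stromal cells, stood at 4.84 to 8.995 CPM in Hepa1-6, 1.19 and 1.99 CPM in the E.G7 pair and 0.194 to 1.04 CPM in LN (edgeR adjusted p = 5.91e-07 and 0.0247 against LN). The E.G7 call for Il15 ended without E.G7 replicate 2 (edgeR adjusted p = 0.273). Il7 was 5.20-fold higher in Hepa1-6 than in LN (edgeR adjusted p = 1.42e-05), at 1.16 to 2.66 against 0.281 to 0.466 CPM. In E.G7 Il7 stood at 0.626 and 0.780 CPM and was not called against LN (edgeR adjusted p = 0.119). Il4 was 1.74-fold higher in Hepa1-6 than in LN (edgeR adjusted p = 0.0284), a call that ended in 7 of 21 alternatives. Il4 was 3.54-fold lower in E.G7 than in LN (edgeR adjusted p = 0.00236), a call that ended without E.G7 replicate 1 (edgeR adjusted p = 0.0548). All 11 macrophage and neutrophil markers were higher than in LN in both tumours, beside 37.0% of all genes in Hepa1-6 and 32.7% in E.G7. The part of myeloid cells in the ligand levels was not tested.

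Outside the common gamma chain receptors, 3 chains of related receptors were listed. Both that were tested were higher than in LN in each tumour, where 37.0% of all genes were higher in Hepa1-6 and 32.7% in E.G7. Il13ra1, which joins Il4ra in the receptor for IL-13, stood at 53.2 CPM in Hepa1-6, 7.05 CPM in E.G7 and 1.90 CPM in LN on average, 27.96-fold and 3.71-fold above LN (edgeR adjusted p = 1e-11 and 5.43e-06). This gene is known from myeloid and stromal cells, and their part was not tested. Crlf2, which joins Il7r in the TSLP receptor, stood at 59.8 CPM in Hepa1-6, 41.5 CPM in E.G7 and 31.2 CPM in LN (edgeR adjusted p = 7.16e-08 and 0.00268), the E.G7 call ending without E.G7 replicate 2 (adjusted p = 0.0798). Il13ra2, a decoy receptor, had 3 counts in 1 Hepa1-6 library and none elsewhere, and was not tested.

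Of 6 kinases and STAT factors, 2 were higher and 2 lower in Hepa1-6, and 1 higher and 3 lower in E.G7, against LN. These shares lie near those of all genes called, 68.0% and 59.9%, so that the values of single genes are given as a description. Stat3 was 2.37-fold higher in Hepa1-6 (1154 against 487 CPM, edgeR adjusted p = 5e-12) and 1.53-fold higher in E.G7 (744 against 487 CPM, edgeR adjusted p = 4.43e-07). Jak1 was 1.52-fold lower in Hepa1-6 and 1.67-fold lower in E.G7 (edgeR adjusted p = 1.78e-08 and 3.79e-08). Jak3, the kinase that binds the common gamma chain, was 1.54-fold higher in Hepa1-6 than in LN (508 against 329 CPM, edgeR adjusted p = 2.98e-07). Stat6, which carries the IL-4 signal, was 1.65-fold lower in E.G7 than in LN (234 against 386 CPM, edgeR adjusted p = 1.1e-06). Between the tumours Stat3, Jak3 and Stat6 were higher in Hepa1-6 than in E.G7 (edgeR adjusted p = 8.19e-07, 6.62e-06 and 8.68e-06). These were 3 of the 6, with 0 lower, beside 45.6% of all genes called, 26.1% higher and 19.6% lower.

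Feedback genes, whose products dampen these signals, were all 4 higher in Hepa1-6 than in E.G7, where 26.1% of all genes were higher. Against LN, 2 were higher in Hepa1-6, and 1 was higher and 2 were lower in E.G7, beside 68.0% and 59.9% of all genes called. Cish, a target of STAT5, stood at 474 CPM in Hepa1-6, 245 CPM in E.G7 and 233 CPM in LN on average. It was 2.03-fold higher in Hepa1-6 than in LN (edgeR adjusted p = 5.71e-12), and in E.G7 the log2 fold change against LN was 0.07 (edgeR adjusted p = 0.287). Socs3, a target of STAT3, was 3.71-fold higher in Hepa1-6 and 2.22-fold higher in E.G7 than in LN (edgeR adjusted p = 2.41e-13 and 1.49e-09). Socs2 was lower in E.G7 than in LN (log2 -0.55, edgeR adjusted p = 1.42e-05) with 0.12 in Hepa1-6 (edgeR adjusted p = 0.0976). Socs1 was lower in E.G7 (log2 -0.31, edgeR adjusted p = 0.000407), which under pan T cell scaling stood at -0.05 (adjusted p = 0.555), with 0.06 in Hepa1-6 (edgeR adjusted p = 0.275).

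Of the 4 survival and growth genes, 1 was higher and 2 lower in Hepa1-6, and 1 higher and 3 lower in E.G7, against LN, beside 68.0% and 59.9% of all genes called. Bcl2, which IL-7 and IL-2 signals are known to raise, was far lower in both tumours, with 46.7 CPM on average in Hepa1-6, 64.6 CPM for E.G7 and 499.8 CPM in LN (log2 -3.42 and -2.95, edgeR adjusted p = 2.34e-16 and 1.25e-13). Pim1, a STAT5 target kinase gene, was 2.32-fold higher in Hepa1-6 and 1.72-fold higher in E.G7 than in LN (edgeR adjusted p = 1.7e-10 and 4.72e-07). Myc was lower in Hepa1-6 than in LN (log2 -0.50, edgeR adjusted p = 3.71e-07). In E.G7 Myc stood at -0.17 (edgeR adjusted p = 0.0333) and Mcl1 at -0.26 (edgeR adjusted p = 0.0435), calls lost in several alternatives, among them without E.G7 replicate 1 (0.134 and 0.399), for Myc also without E.G7 replicate 2 (0.132), and under pan T cell scaling (0.09 and 0.00, adjusted p = 0.33 and 1).

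Transcription factors known to act on Il7r were read beside the fall of that gene. Of 5, 1 was higher and 3 lower in Hepa1-6, and 2 higher and 3 lower in E.G7, against LN, beside 68.0% and 59.9% of all genes called. Foxo1, an activator of Il7r, was 2.30-fold lower in Hepa1-6 and 1.54-fold lower in E.G7 than in LN (edgeR adjusted p = 5e-10 and 1.9e-05). Foxp1, known to oppose Foxo1 at Il7r, was 4.75-fold lower in Hepa1-6 and 1.82-fold lower in E.G7 (edgeR adjusted p = 2.45e-15 and 7.48e-09), and Ets1 was also lower (log2 -0.59 and -0.67, edgeR adjusted p = 2.05e-09 and 1.41e-08). Gfi1, a repressor, stood at 7.35 CPM in Hepa1-6, 7.92 CPM in E.G7 and 4.88 CPM in LN (edgeR adjusted p = 0.0075 and 0.00893 against LN); the calls ended with upper-quartile scaling in Hepa1-6 (0.0511) and without E.G7 replicate 2 in E.G7 (0.185). Gabpa stood at 0.00 in Hepa1-6 (edgeR adjusted p = 0.97) and 0.22 in E.G7 (edgeR adjusted p = 0.0364), a call lost without either E.G7 library (0.22 and 0.0556). Foxo1 and Foxp1 were lower in Hepa1-6 than in E.G7 (edgeR adjusted p = 4.94e-05 and 2.52e-11), and Il7r was higher in Hepa1-6 than in E.G7. The part of these 5 factors in the level of Il7r was not tested.

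**Figure D5:**
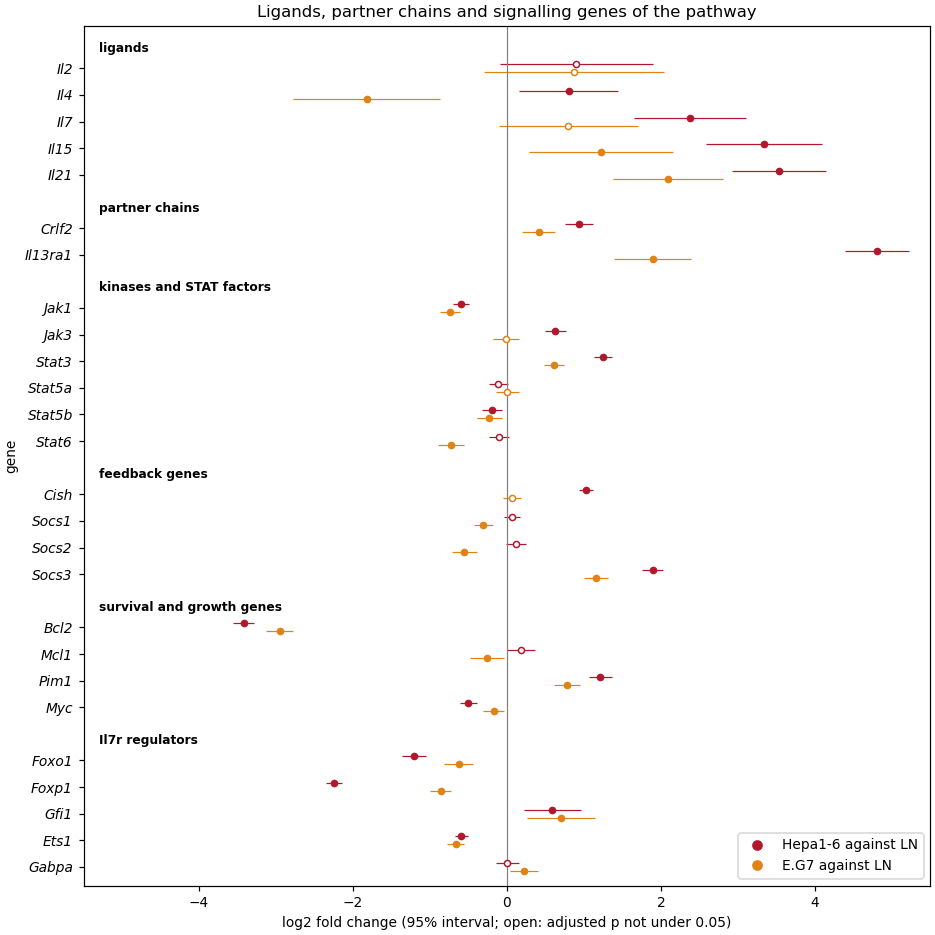
Log2 fold change with 95% interval of the tested ligand, partner chain, kinase and STAT, feedback, survival and growth, and Il7r regulator genes for Hepa1-6 against LN and E.G7 against LN; open points did not pass an edgeR adjusted p of 0.05. Bcl2 lies at -3.42 in Hepa1-6 and -2.95 in E.G7, and Il13ra1 at 4.80 in Hepa1-6.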

How the data were processed

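Raw read counts per gene were deposited for 10 libraries, with positions and exon length as featureCounts prints them, per the file headers. The submitters' processing notes name the mm10 build and the tools DESeq2, RSEM, Subread, featureCounts and HISAT2; versions, roles and strand setting are not given in the sources used here. FPKM values were deposited per library for 12930 genes, scaled by the authors by gene length and library size. Counts were tested in R 4.3.3 with edgeR 4.0.16: filterByExpr (20068 genes kept), TMM scaling, and one robust quasi-likelihood fit to all 10 libraries with group as the term, so that E.G7 with 2 libraries shares the estimate of the spread. Adjusted p is by the Benjamini-Hochberg method over all genes tested, with 0.05 as the threshold; the SE was taken as the size of the log2 change over the root of F. Replicates were compared by chi-square over genes with at least 20 counts; pairs differed beyond sampling noise (6.18 to 15.1 per degree of freedom) and were kept apart. P-values measure the spread between libraries, which may be technical. Intervals are 95%. The genes named are the 8 receptor genes, the pathway lists, with up to 3 genes of each longer list by smallest adjusted p, and the 2 genes of most similar profile. The members and lists were chosen with earlier results of these data known. Alternatives were RLE, upper-quartile and pan T cell gene scaling, no filter, DESeq2 1.42.0, limma-voom (limma 3.58.1), a fit without the group not compared, a block for replicate number, limma on log2(FPKM + 1) with a filter (over 1 FPKM in 2 or more libraries) and without it, the same filter with a pseudocount of 0.1, and leaving out each library. Some genes that this rule would name are not reported here.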

Additional observations from a re-analysis of the deposited data

Results flagged for a closer look

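The effect against LN differed between the 2 tumours for all 8 receptor genes, by the edgeR test of Hepa1-6 against E.G7, which is the test of that difference. The log2 fold change in Hepa1-6 minus that in E.G7 was 1.10 for Il2ra, 0.66 for Il15ra, 0.55 for Il4ra, 0.48 for Il21r, 0.44 for Il2rb, 0.37 for Il7r and 0.15 for Il2rg, and it was -1.79 for Il9r. The difference for Il2rg (edgeR adjusted p = 0.0382) did not hold without E.G7 replicate 1 (0.165) or 2 (0.14), Hepa1-6 replicate 1 (0.0669) or 3 (0.107), or LN replicate 1 (0.0507). With TMM scaling Il9r was the 1 gene called against LN in opposite directions. Il2rb was also called higher in Hepa1-6 and lower in E.G7 with upper-quartile scaling (log2 0.14 and -0.23, edgeR adjusted p = 0.00334 and 0.000557). Under pan T cell scaling Il2ra (0.33 and -0.78) and Il4ra (0.25 and -0.31) were called higher in Hepa1-6 and lower in E.G7. In the 16 sets of 4 libraries that were checked (8 genes in Hepa1-6 and in LN), 0 had a library far from the others.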

How the results depend on the processing

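Of 504 recomputed fold changes of the receptor genes, 451 kept their direction and side of the threshold, 20 fell below it, 12 rose past it and 21 changed sign. Called genes changed most under 2 scalings: with upper-quartile scaling 6 receptor genes were lower in Hepa1-6 than in LN, and with pan T cell gene scaling 6 were higher in Hepa1-6, and in E.G7 2 were higher and 3 lower than in LN. Among all 20068 genes in Hepa1-6 against LN, upper-quartile scaling called 14110, 6356 of them higher. Pan T cell gene scaling called 13486, 9363 of them higher, and in E.G7 against LN 12000, 8198 of them higher. Leaving out each library gave 2 to 2 higher and 2 to 2 lower genes in Hepa1-6 against LN, 1 to 1 higher and 4 to 6 lower in E.G7 against LN, and 6 to 7 higher and 1 to 1 lower in Hepa1-6 against E.G7. Changes of sign (log2) in Hepa1-6 against LN: with upper-quartile scaling Il2ra -0.13, Il21r -0.14, Socs1 -0.12, Socs2 -0.062 and Gabpa -0.18; with pan T cell gene scaling Il2rg 0.27, Il4ra 0.25 and Stat5b 0.076; Il2rg 0.0182 with RLE scaling and 0.0176 with DESeq2; Gabpa -0.0294 without a filter, -0.00304 in the fit of the 2 groups, -0.0118 on log2(FPKM + 1) with and without a filter, and -0.0124 on log2(FPKM + 0.1). In E.G7 against LN: Il15ra 0.0365 with RLE and 0.0360 with DESeq2, 0.0258 without a filter, 0.0228 in the fit of the 2 groups and 0.00253 with the replicate block; with pan T cell gene scaling Il2rb 0.15, Il2rg 0.10, Il15ra 0.25, Stat5b 0.0265, Mcl1 0.00049 and Myc 0.0865; Cish -0.0486 with upper-quartile scaling. In Hepa1-6 against E.G7, Ets1 -0.00222 in the fit of the 2 groups. Without one library, sign changes were within -0.0333 to 0.0165 for Il2rg, -0.00405 to 0.0737 for Il21r and -0.0454 to 0.0394 for Gabpa in Hepa1-6 against LN, -0.0779 to 0.0745 for Il15ra in E.G7 against LN, and -0.33 to 0.14 for Gfi1 between the tumours. No pairing by replicate number was seen. Deviations of same-numbered libraries correlated at -0.06 to 0.05 in Hepa1-6 and LN. The values were -0.08 to 0.04 in E.G7 and LN and -0.05 to 0.01 in the tumours. The 2 E.G7 deviations are mirror images of each other, so their values are not independent. Of 8 Hepa1-6 and LN libraries, 3 correlated best with their own number. Such a check cannot exclude a pairing that leaves little trace in expression. With the replicate block 4 receptor genes were lower in E.G7 than in LN and 6 higher in Hepa1-6 than in E.G7, 1 fewer each, Il2rg being lost (edgeR adjusted p = 0.0956 and 0.14). The cause of these changes was not tested. With 2 libraries, E.G7 limits every comparison it enters.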
